A study of Mus musculus with 36 samples.

Results

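The report covers the change in polyadenylated RNA between 1 h and 6 h of brain-derived neurotrophic factor (BDNF) in mouse cortical neurons (CNs), taken directly as the BDNF 6 h libraries minus the BDNF 1 h libraries. The members were the 4 RNA libraries that carry these labels, 2 at each time, out of 36 samples in the series (18 RNA-seq and 18 ATAC-seq). All neurons came from cortices of CD-1 embryos at embryonic day 15, dissociated and kept for 7 days in vitro, with no transgene or deletion named in the labels. Before any stimulus, 2 h in AP-5 (100 µM, a blocker of NMDA receptors) and TTX (1 µM, a blocker of voltage-gated sodium channels) silenced the cells of every group. BDNF was then given at 10 ng/ml for 1, 6 or 10 h, and KCl, which depolarises the membrane, at 55 mM for the same times. Controls stayed in both blockers without a stimulus, for 3, 8 or 12 h in all. Their 6 RNA libraries served as 1 unstimulated group.

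BDNF binds the receptor tyrosine kinase TrkB, which signals through the Ras-ERK, PI3K-Akt and phospholipase C pathways. ERK signalling activates factors already present in the cell, among them SRF with its ternary complex partners and CREB, which bind CArG boxes and cAMP response elements in promoters of immediate early genes (IEGs). IEG transcripts are made within minutes, and many carry AU-rich elements in the 3′ untranslated region (UTR) that shorten their life. Their products include the AP-1 and EGR transcription factors, which act on delayed genes, and phosphatases and adaptors that restrain the pathway. A direct comparison of 6 h with 1 h asks which of these transcripts decayed and which built up as the response matured.

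Libraries held 8.51 M reads (BDNF 1 h, A), 17.1 M (BDNF 1 h, B), 13.4 M (BDNF 6 h, A) and 13.1 M (BDNF 6 h, B), within a range of 8.51 to 36.7 M over the 18 RNA libraries. Levels are given as normalised counts, read counts divided by a size factor for each library, and compare a gene between libraries, not different genes with each other. Changes are differences of log2(normalised count + 1), positive where 6 h was higher, and a gene was called at an adjusted p below 0.1 from limma. The neuronal identity of the cultures was checked with 12 neuron markers such as Tubb3, Rbfox3 and Snap25, all of which passed the filter on low values. Their summed level was 53838 to 57721 in the 4 libraries and 54602 to 60796 in the controls. Of the 12, 3 rose and 3 fell between 1 h and 6 h, with a median log2 change of 0.015. The cultures also held glia. The summed level of 11 markers of astrocytes and radial glia was 34837 and 34988 at 1 h, 27478 and 28340 at 6 h, and 29166 to 34603 in controls. Of the 11, 8 fell and 0 rose, with a median log2 change of -0.28. For comparison, 17.7% of all genes tested fell and 15.8% rose. Among the 11 markers, Sox9 fell by 1.02 and Glul by 0.69 on the log2 scale, and the part of glial RNA in the results was not tested. In such bulk samples fewer cells of a type and less RNA per cell cannot be told apart. The 8 dividing cell markers summed to 6400 and 6868 at 1 h and to 4744 and 5104 at 6 h, with 3 of 8 lower. Controls stood at 5206 to 8223, so that both 6 h libraries lay under them. None of the 8 interneuron markers rose and 1 fell. Their sum was 14799 to 17224 in the 4 libraries, above the controls at 12692.7 to 14602.5. The 7 microglial markers summed to only 125 to 173 in the 4 libraries, with none at 0 in all 4, and 0 of the 6 tested were called.

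To show the sequence elements at issue, sites from the 3′ UTRs of transcripts that fell are given first. The nonamer UUAUUUAUU, the core of the AU-rich element, was located in 3′ UTRs of GENCODE M21 on GRCm38. It is in capitals in these windows of 29 bases, written 5′ to 3′ as RNA for Fos (chr12:85477103-85477131, plus strand), Csrnp1 (chr9:119972067-119972095, minus), Pim1 (chr17:29495689-29495717, plus), Per1 (chr11:69109686-69109714, plus) and Dusp1 (chr17:26506159-26506187, minus), chosen because these genes are described below and hold the element.
Fos: uguuuucaauUUAUUUAUUaagauggauu
Csrnp1: cacucugaauUUAUUUAUUuuuuuauguu
Pim1: uuuaauguauUUAUUUAUUuauuuauuug
Per1: ggggcugcacUUAUUUAUUugggagagac
Dusp1: gagcugguccUUAUUUAUUuaacaccccc
The Fos site starts at base 655 of an 815-base 3′ UTR and the Per1 site at base 337 of 601. Pim1 holds 3 copies, Dusp1 holds 2, and the other 3 transcripts hold 1 each. A match is a description of letters and was not tested for function.

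Promoters are given for a few genes in which the start region carried a motif of the factors named above. RefSeq windows on GRCm38.p6 run from 250 bases before to 50 bases after the start, with motif matches in capitals, for Egr2 (chr10:67537316-67537615, plus strand, a CArG box starting 72 bases before the start), Fosb (chr7:19309996-19310295, minus strand, an EGR motif at 50 bases before), Maff (chr15:79347270-79347569, plus strand, an EGR motif at 88 and a cAMP response element at 29 bases before) and Vav3 (chr3:109340433-109340732, plus strand, an EGR motif at 116 bases before). Egr2, Fosb and Maff belong to transcripts that fell and Vav3 to those that built up.
Egr2: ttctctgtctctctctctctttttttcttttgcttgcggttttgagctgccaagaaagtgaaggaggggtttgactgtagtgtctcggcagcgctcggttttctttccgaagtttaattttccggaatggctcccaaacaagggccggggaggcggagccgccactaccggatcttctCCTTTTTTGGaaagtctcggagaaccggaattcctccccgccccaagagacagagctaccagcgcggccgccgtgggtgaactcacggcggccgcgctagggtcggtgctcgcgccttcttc
Fosb: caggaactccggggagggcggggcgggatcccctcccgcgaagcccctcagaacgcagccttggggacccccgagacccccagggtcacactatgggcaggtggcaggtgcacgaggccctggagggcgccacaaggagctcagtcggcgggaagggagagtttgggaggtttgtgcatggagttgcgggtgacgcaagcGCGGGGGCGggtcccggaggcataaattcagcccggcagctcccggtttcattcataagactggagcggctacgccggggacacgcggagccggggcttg
Maff: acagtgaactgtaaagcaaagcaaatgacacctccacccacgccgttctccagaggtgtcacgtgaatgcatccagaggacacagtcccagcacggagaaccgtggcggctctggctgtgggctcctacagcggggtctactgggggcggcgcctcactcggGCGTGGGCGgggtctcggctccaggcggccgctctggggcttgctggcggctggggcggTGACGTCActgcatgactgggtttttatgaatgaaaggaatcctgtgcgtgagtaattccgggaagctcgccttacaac
Vav3: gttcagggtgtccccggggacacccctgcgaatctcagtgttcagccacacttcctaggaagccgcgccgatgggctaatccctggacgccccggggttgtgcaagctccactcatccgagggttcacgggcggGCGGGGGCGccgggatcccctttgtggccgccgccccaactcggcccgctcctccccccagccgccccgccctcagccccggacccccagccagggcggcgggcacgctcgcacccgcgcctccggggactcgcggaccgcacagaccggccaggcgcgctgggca

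Between 1 h and 6 h of BDNF the transcriptome moved in both directions. Of 16209 genes tested, 2875 were lower at 6 h (17.7%), 2568 were higher (15.8%) and the rest did not pass. Calls numbered 3586 without BDNF 1 h replicate A and 3515 without BDNF 6 h replicate B, beside 5443 with all libraries. Most called changes were small. The median size among called genes was 0.47 on the log2 scale, and 352 genes fell at least 2-fold (2.17%) while 246 rose at least 2-fold (1.52%). The falls reached further than the rises, with 13 genes beyond a log2 change of -3 and 7 beyond 3. Genes that fell at least 2-fold held 2.16% and 2.21% of all normalised counts at 1 h, 0.84% and 0.83% at 6 h, and 0.80 to 0.82% in controls. Genes that rose at least 2-fold went from 0.23% in both 1 h libraries to 0.64% and 0.65% at 6 h, against 0.32 to 0.34% in controls. Both sets were selected by their change between these BDNF libraries, so the direction of these shares was fixed and they are a description. Coding genes made up 87.8% of the falls and 90.2% of the rises, beside 83.0% of all genes tested.

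**Figure D1:**
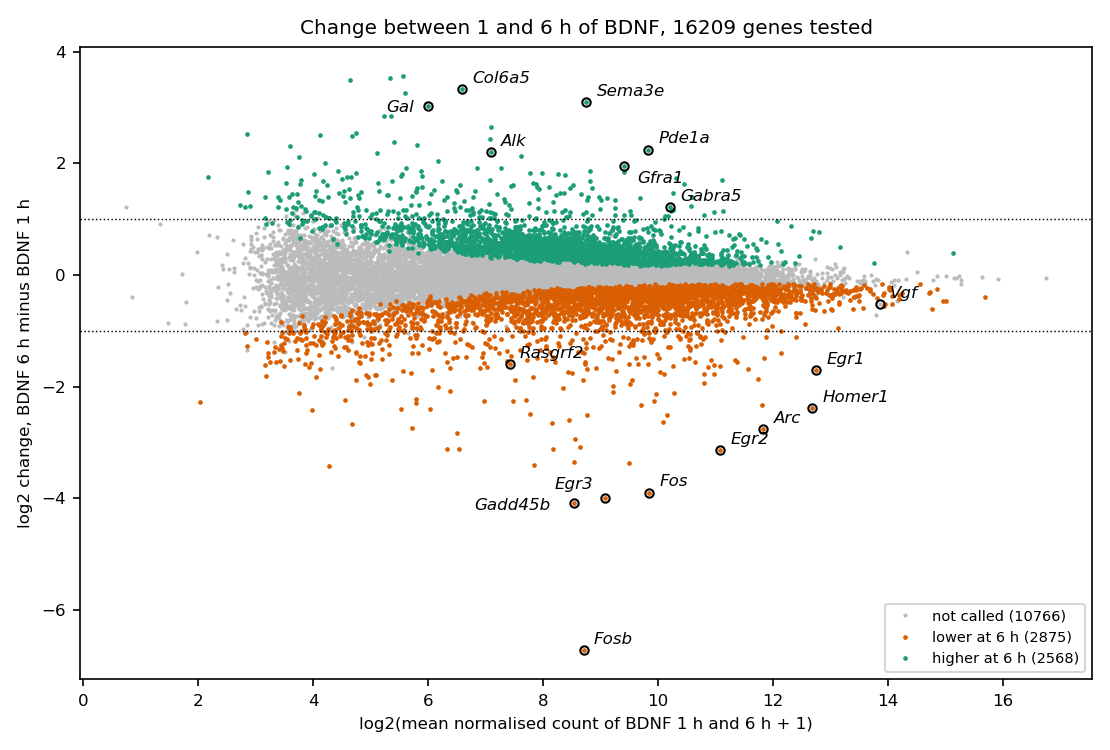
Each point is 1 of the 16209 genes tested, with the mean level of the 4 libraries on the x axis (log2 normalised count + 1) and the log2 change from 1 h to 6 h of BDNF on the y axis; orange and green mark called genes and dotted lines mark a 2-fold change. The deepest falls, led by Fosb at -6.73, lie among genes of middle to high level, and Vgf, circled at -0.53, was not called.

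Without a stimulus the same interval gave no call. In controls 6 h minus 1 h, limma called 0 of 16209 genes (0%), with 164 at an unadjusted p below 0.05, and edgeR also called 0. The control 1 h replicates stood further apart than those of control 6 h, with a chi-square per degree of freedom of 10.4 beside 4.70. They held 36.7 M and 10.9 M reads. With 2 libraries at each time, no call does not show that nothing changed in controls. The change under BDNF was then tested against the change in controls in 1 model. This interaction called 2574 genes (15.9%), 1455 lower (8.98%) and 1119 higher (6.9%). It included 271 of the 352 genes that fell at least 2-fold and 177 of the 246 that rose at least 2-fold, a selection that used the same BDNF libraries, so that these 2 counts are a description. Of all 2875 falls, however, 1441 (50.1%) were not called in the interaction, and of all 2568 rises 1478 (57.6%) were not. Over all genes tested 84.1% were not called. The interaction called 1441 to 1681 genes without any 1 of the 4 BDNF libraries, 1570 without control 1 h replicate A and 1684 without control 6 h replicate B.

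The AP-1 factors, leucine zipper proteins that pair with each other on DNA, gave the single deepest fall. Fosb (chr7:19302696-19310051, minus strand) stood at 754 and 901 normalised counts at 1 h and at 6.31 and 7.32 at 6 h, with 4.93 to 10.8 in the 6 controls. The groups of 1 h and 6 h lay 121-fold apart, and the 6 h libraries lay inside the range of the controls (log2 change -6.73, SE 0.27, adjusted p = 1.24e-13). Fos (chr12:85473890-85477273, plus strand) went from 1715 and 1738 to 125 and 105, and to 119 and 113 at 10 h (log2 change -3.90, SE 0.18, adjusted p = 4.98e-12). Unlike Fosb, Fos kept all 4 later libraries above the controls, which spanned 25.1 to 43.3. Junb fell from 1829 and 1913 to 330 and 272, and Atf3, a stress-induced partner, from 154 and 132 to 15.3 and 15.6. Fosl1 changed by -1.58 from 195 and 179 to 61.3 and 62.2. Fosl2 fell by 2.33 on the log2 scale to 1167 and 1223, and Jun by 1.17 to 1286 and 1426. Of 12 members tested 11 fell and 0 rose, with a median log2 change of -1.73 beside -0.02 over all genes tested. Over all genes tested 17.7% fell and 15.8% rose, and the list was chosen for fast-induced genes.

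The EGR zinc finger factors and their corepressors Nab1 and Nab2 fell without exception, 6 of 6, with a median of -2.42. Beside them, 17.7% of all genes tested fell and 15.8% rose, and this list too was chosen for fast-induced genes. Egr3 had 967 and 1059 normalised counts at 1 h and 70.3 and 55.8 at 6 h (log2 change -3.99, SE 0.27, adjusted p = 5.37e-10). Egr4 went from 1238 and 1401 to 133 and 120, and Egr2 from 3868 and 3913 to 477 and 408. Egr1 had 10503 and 10568 at 1 h and still 3378 and 3060 at 6 h (log2 change -1.71, SE 0.11, adjusted p = 2.9e-10). All 4 factors remained above controls at 10 h: Egr1 had 2514 and 2159 there against 194 to 247 in controls, and Egr2 302 and 366 against 8.3 to 15.6. Nab1 fell by 1.41 and Nab2 by 1.49.

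Other fast-induced regulators, a list chosen for such genes, fell in 20 of 26 cases and rose in none (median -1.12). Over all genes tested the shares were 17.7% lower and 15.8% higher. Nr4a1, an orphan nuclear receptor, went from 657 and 704 to 58.6 and 74.1, and reached 49.7 and 59 at 10 h against 50.9 to 64.4 in controls (log2 change -3.35, SE 0.14, adjusted p = 1.24e-13). Csrnp1, a nuclear protein rapidly induced by growth signals, had 522 and 516 at 1 h and 63.1 and 54.9 at 6 h. Npas4, a factor best known from depolarised neurons, had only 362 and 377 at 1 h and 64.0 and 65.0 at 6 h, with controls at 60.1 to 114, and fell by 2.50 (SE 0.34). Sertad1 fell by 2.52, Klf10 by 1.93 and Srf itself by 1.27. Cebpb fell by 1.67, from 169 and 194 to 66.7 and 47.6, and Hic1, a transcriptional repressor, by 1.39, from 181 and 177 to 68.5 and 66.8. 

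Synaptic and signalling effectors, also chosen as fast-induced genes, moved the same way, with 21 of 26 lower, 1 higher and a median of -1.06. Beside them, 17.7% of all genes tested were lower and 15.8% higher. Gadd45b, which acts in DNA demethylation and stress signalling, fell from 680 and 727 to 36.9 and 43.9 (log2 change -4.09, SE 0.27, adjusted p = 2.25e-10). Rrad and Rem2, small GTPases that restrain calcium channels, fell in both cases. Rrad fell by 3.40 on the log2 scale and Rem2 fell by 3.08 on the log2 scale. Rrad went from 411 and 428 to 43.2 and 34.8, and Rem2 from 738 and 694 to 83.8 and 83.3. Arc, which drives removal of AMPA receptors from synapses, went from 6244 and 6474 to 920 and 957, and further to 621 and 596 at 10 h. All its BDNF libraries lay above the controls at 25.1 to 39.4, and it fell by 2.76 (SE 0.19, adjusted p = 4.96e-10). Homer1, a scaffold of metabotropic glutamate receptors, fell by 2.39 from 11003 and 11135 to 2152 and 2073. Its short and long isoforms share the gene and were not separated here. Pim1, a serine/threonine kinase, fell by 2.65 from 470 and 512 to 73.9 and 80.5. Syt4, a synaptotagmin of dense core vesicles, fell only by 0.40. Alpk1, a kinase of innate immunity outside the lists, fell by 2.83 from 160 and 157 to 25.2 and 18.3.

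**Figure D2:**
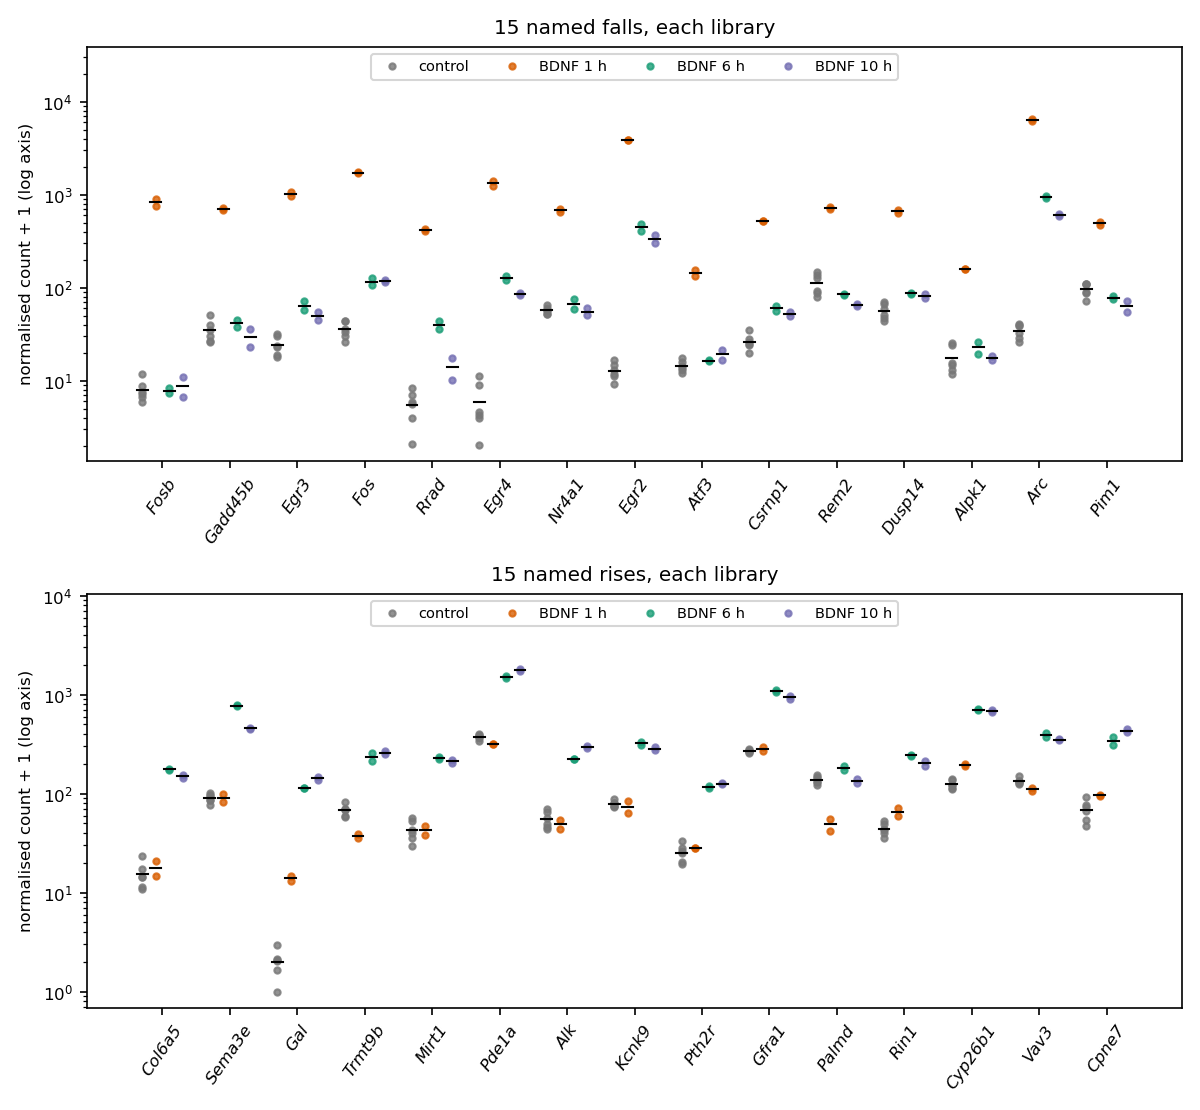
Every point is 1 RNA library of controls (6) or of BDNF 1, 6 and 10 h (2 each), with normalised count + 1 on a log axis and short bars for group means; the upper panel holds the 15 named falls and the lower panel the 15 named rises. Egr2 and Arc stay far above controls at 6 h and 10 h while Fosb lies in their range and the Nr4a1 libraries, at 49.7 to 74.1, lie in or close to it, and the rises hold their level at 10 h in most genes, with Sema3e lower there.

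Spread evenly over the 5 h between the samplings, the 15 named falls equal 1 halving per 0.722 h for Fosb, 1.28 h for Fos, 1.59 h for Egr2, 1.81 h for Arc and 1.87 h for Pim1. These are averages of the measured level between 2 times and take no account of the control level. At 6 h Fosb lay in the range of the controls, while Fos, Egr2 and Arc still lay above it, so the values do not rank rates. Synthesis and decay of RNA were not measured apart, and a peak before or after 1 h would not be seen.

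Feedback regulators of ERK and receptor kinases were less uniform, with 14 of 22 lower, 2 higher and a median of -0.44. The shares over all genes tested were 17.7% lower and 15.8% higher. Dusp14, a dual-specificity phosphatase, fell by 2.94 from 639 and 691 to 87.4 and 84.2. Trib1, a pseudokinase, fell by 2.10, the MAP kinase phosphatase Dusp1 by 1.39 and Errfi1, an inhibitor of EGF receptors, by 0.93. Dusp4, in contrast, had 4302 and 4595 at 1 h and 3959 and 3496 at 6 h, a log2 change of -0.26 (SE 0.20) that did not pass (adjusted p = 0.378), while controls stood at 510 to 650. Dusp8 fell by 0.45.

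The mRNA decay machinery, whose AU-rich binding proteins and deadenylation adaptors act on many IEG transcripts, had 17 of 40 lower and 2 higher with a median of -0.13. Beside them, 17.7% of all genes tested were lower and 15.8% higher. Btg2, an adaptor of the CCR4-NOT deadenylase, fell most, from 1574 and 1648 to 448 and 518, below the controls at 576 to 795 (log2 change -1.74, SE 0.17, adjusted p = 6.16e-07). Zfp36 (tristetraprolin), which binds AU-rich elements, fell by 0.97 from 57.8 and 45.0 to 19.8 and 32.9, a call that was lost without library A of BDNF 1 h (adjusted p = 0.24) or library A of BDNF 6 h (adjusted p = 0.352). Upf1, the helicase of nonsense-mediated decay, fell by 0.59, and Zc3h12c by 0.90. Elavl3, a neuronal stabiliser of such messages, fell by 0.32, a call lost without library B of BDNF 6 h (adjusted p = 0.111), and Pum2 changed by -0.16 without passing.

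Among the named rises, secreted proteins are given first. Col6a5, a collagen VI chain, rose from 13.7 and 19.8 to 177 and 172 (log2 change 3.33, SE 0.34, adjusted p = 1.58e-07), with 155 and 145 at 10 h. Sema3e, a secreted guidance cue for axons and vessels, had 98.8 and 80.9 at 1 h, within the range of the controls at 76.4 to 102, and 778 and 762 at 6 h (log2 change 3.09, SE 0.17, adjusted p = 1.33e-11). It held 453 and 460 at 10 h. Gal, the galanin precursor, rose from 12.2 and 13.7 to 114 and 113 and had 138 and 147 at 10 h, while controls held 0 to 1.96. Crh, the corticotropin-releasing hormone precursor, rose from 1.52 and 5.34 to 48.6 and 40.3 (log2 change 3.50, SE 0.97, adjusted p = 0.0156), and its 1 h values rest on 1 and 7 reads. The Crh call was lost without library A of BDNF 1 h (log2 change 2.83, adjusted p = 0.136).

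Receptors, channels and enzymes follow. Alk, a receptor tyrosine kinase, went from 53.2 and 42.7 to 225 and 221, and to 303 and 291 at 10 h. Gfra1, the coreceptor for GDNF, rose from 268 and 296 to 1105 and 1067 (log2 change 1.94, SE 0.11, adjusted p = 2.46e-11), with controls at 259 to 280. Pth2r, a parathyroid hormone receptor, rose by 2.04. Pde1a, a calmodulin-dependent phosphodiesterase of cyclic nucleotides, had 318 and 316 at 1 h, below the controls at 343 to 396, and 1539 and 1472 at 6 h (log2 change 2.24, SE 0.09, adjusted p = 1.24e-13). Rin1, a Ras effector, rose by 1.91, Vav3, a guanine nucleotide exchange factor, by 1.83, and Cpne7, a calcium-dependent phospholipid binding protein, by 1.83. Cyp26b1, which degrades retinoic acid, rose by 1.87 from 196 and 188 to 701 and 708. Kcnk9, a two-pore potassium leak channel, rose by 2.14 from 62.3 and 83.2 to 330 and 311. Trmt9b, a tRNA methyltransferase relative, rose by 2.65 and the long non-coding RNA Mirt1 by 2.43.

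Some genes that rose started from a level below controls. Gpr12, an orphan receptor coupled to cyclic AMP, had 57.8 and 67.9 at 1 h, 208 and 201 at 6 h, 243 and 222 at 10 h and 276 to 366 in controls (log2 change 1.69, SE 0.14, adjusted p = 5.22e-09). Kcnv1, a modifier subunit of potassium channels, had 106 and 111 at 1 h and 341 and 347 at 6 h, against 285 to 363 in controls. Palmd went from 41.1 and 55.0 to 173 and 191 with controls at 120 to 152. In these 3 genes the 1 h libraries lay under every control. Other genes were lower at 6 h than at 1 h and lay under every control at 6 h. Rasgrf2 and Nipal3 were under every control at 1 h already. Rasgrf2, a Ras exchange factor, had 254 and 258 at 1 h and 91.9 and 76.9 at 6 h against 299 to 344 in controls (log2 change -1.60, SE 0.13, adjusted p = 8.26e-09). Nipal3, a magnesium transporter relative, went from 432 and 417 to 150 and 156 with controls at 472 to 606. Cacna1g, a T-type calcium channel, had 876 and 975 at 1 h, with controls at 725 to 908, and 359 and 350 at 6 h.

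Neuropeptides and granule proteins gave 7 rises and 4 falls among 26, with a median of 0.07, beside 15.8% higher and 17.7% lower over all genes. The prohormone convertase Pcsk1 fell by 1.28, and Cartpt rose by 1.41 (adjusted p = 0.0652), a call that was lost without any 1 of the 4 BDNF libraries (adjusted p = 0.134 to 0.258). Vgf, a granin-like precursor, had 17183 and 17977 at 1 h and 11851 and 12560 at 6 h, far above the controls at 251 to 481. Its log2 change of -0.53 (SE 0.36) did not pass in the fit over all libraries (adjusted p = 0.323). Splitting the controls by time left it uncalled (limma adjusted p = 0.388). It passed with the 4 BDNF libraries alone (adjusted p = 1.61e-17). That fit leaves out the spread of the control, KCl and BDNF 10 h libraries, and the part of each was not tested. Cpe had 13322 and 13621 at 1 h and 13026 and 13817 at 6 h.

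Neurotrophins, Trk receptors and their adaptors divided, with 9 of 22 lower and 6 higher (median -0.15), beside 17.7% and 15.8% of all genes. Ntf3, the neurotrophin-3 gene, held 39.5 and 55.7 normalised counts at 1 h, then 9.91 and 15.6 at 6 h, all under the controls at 80.3 to 106 (log2 change -1.84, SE 0.22, adjusted p = 2e-06). Bdnf itself went from 158 and 172 to 97.3 and 121 (log2 change -0.60, SE 0.23, adjusted p = 0.0646), and lost its call without library A of BDNF 1 h (adjusted p = 0.145), library B of BDNF 1 h (adjusted p = 0.235) or library A of BDNF 6 h (adjusted p = 0.327). Ntrk2, which encodes TrkB, fell by 0.45 from 6239 and 7005 to 4662 and 5018. Its isoforms were not separated here, and the part of glial RNA in this fall was not tested. The sorting receptors Sorcs3 and Sorcs2 rose by 1.56 and 0.81. Kidins220, a scaffold of Trk receptors, fell by 0.21 (adjusted p = 0.0592), a call lost without library B of BDNF 1 h (adjusted p = 0.312), library A of BDNF 6 h (adjusted p = 0.217) or library B of BDNF 6 h (adjusted p = 0.151).

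Of 26 glutamate and GABA receptor subunits 8 rose and 8 fell (median 0.08), beside 15.8% higher and 17.7% lower over all genes. Both directions were thus more frequent in this list than over all genes. Gabra5, the alpha5 subunit of extrasynaptic GABA-A receptors, rose from 707 and 715 to 1624 and 1679 (log2 change 1.21, SE 0.08, adjusted p = 5.73e-10), and Grin2a by 1.14, while Gabrd fell by 1.04, a call lost without library A of BDNF 6 h (adjusted p = 0.136). The AMPA receptor subunits Gria1 and Gria2 changed by 0.06 and 0.11 and did not pass. Of 43 voltage-gated channel genes 9 rose and 9 fell (median -0.06), close to the shares of 15.8% and 17.7% over all genes. Kcna1 fell by 2.11 from 1930 and 2105 to 484 and 448 with controls at 170 to 209, and Kcns1 rose by 1.68.

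Guidance and cytoskeleton genes counted 8 rises and 13 falls among 42 (median -0.07), beside 15.8% higher and 17.7% lower over all genes. Sema3a rose by 1.19 from 356 and 385 to 858 and 835, beside Sema3e above, and Slit3 by 0.72. The cytoskeletal genes Dpysl3 and Map1b fell by 0.47 and 0.61, and Stmn4 by 0.71. Matrix genes, proteases and inhibitors had 7 falls and 3 rises among 28 (median -0.23), beside the same 17.7% lower and 15.8% higher over all genes. Acan, the aggrecan core of perineuronal nets, fell by 2.08 from 134 in both libraries to 27.9 and 33.9, Plat, the tissue plasminogen activator, by 1.56 from 2317 and 2471 to 732 and 894, and Adamts1 by 1.13. Of the 11 astrocyte and radial glia markers given above, 8 fell over the same interval. Of 4 vascular markers tested 2 fell, with a summed level over 7 markers of 823 and 1001 at 1 h, 519 and 915 at 6 h and 509 to 2110 in controls. Of 8 oligodendrocyte lineage markers 1 rose and 1 fell, and their sum went from 6583 and 6917 to 5916 and 5773, beside 6161 to 6620 in controls. The part of these cell types in the falls of the matrix list was not tested.

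Of 35 ribosome biogenesis genes 17 rose and 1 fell, with a median of 0.23, beside 15.8% of all genes higher. The largest changes were those of Rrp12 (0.67), Polr1b (0.64), Utp20 (0.64) and Wdr12 (0.63), and Rrp12 went from 280 and 357 to 515 and 492. The nucleolar genes Ncl and Npm1 changed by -0.11 and 0.10 and did not pass. Cholesterol synthesis and uptake genes fell in 13 of 23 cases and rose in 5 (median -0.21), beside 17.7% and 15.8% of all genes. At 10 h of BDNF, however, 22 of the 23 were higher than controls and 0 lower. Over all genes tested 21.1% were higher and 19.5% lower at 10 h. Sc5d fell by 0.88, Insig1 by 0.65 and Hmgcs1 by 0.44, whereas Mvk and Mvd rose by 0.68 and 0.65. Among 34 chaperones and amino acid stress genes 7 rose and 9 fell (median 0.11), beside 15.8% higher and 17.7% lower over all genes. At 10 h 26 of these 34 were higher than controls and 0 lower. The ribosome biogenesis list had 33 of 35 higher and 0 lower there. The stress factors Ddit3 and Atf4 fell by 1.31 and 0.63 and the heat shock cochaperone Dnajb1 by 1.10, while Sdf2l1 of the endoplasmic reticulum rose by 0.87.

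The clock genes counted 8 falls and 2 rises among 19 (median -0.24), beside 17.7% lower and 15.8% higher over all genes. Per1, an ERK and CREB responsive repressor of the clock, fell from 1627 and 1613 to 366 and 316 (log2 change -2.25, SE 0.12, adjusted p = 5.88e-12), Nfil3 by 1.51 and Per2 by 1.46, and Npas2 rose by 1.56. FoxO factors, their targets and arrestin relatives had 12 falls and 4 rises among 23 (median -0.24), beside the same shares over all genes. The proapoptotic target Bbc3 fell by 1.74 from 534 and 530 to 142 and 177, under the controls at 226 to 297. Irs2 fell by 1.50 and Foxo3 by 0.84 from 1133 and 1211 to 635 and 672. Txnip, a thioredoxin inhibitor, had 199 and 179 at 1 h and 185 and 181 at 6 h, with overlapping libraries, both times under the controls at 519 to 663. Arrdc3 rose by 0.23 (adjusted p = 0.0811), a call lost without library A of BDNF 1 h (adjusted p = 0.152), library B of BDNF 1 h (adjusted p = 0.301) or library A of BDNF 6 h (adjusted p = 0.395). Beside the background of 17.7% lower and 15.8% higher, the AP-1, EGR, other regulator and effector lists were lower in most members, and these lists were chosen for such genes.

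**Figure D3:**
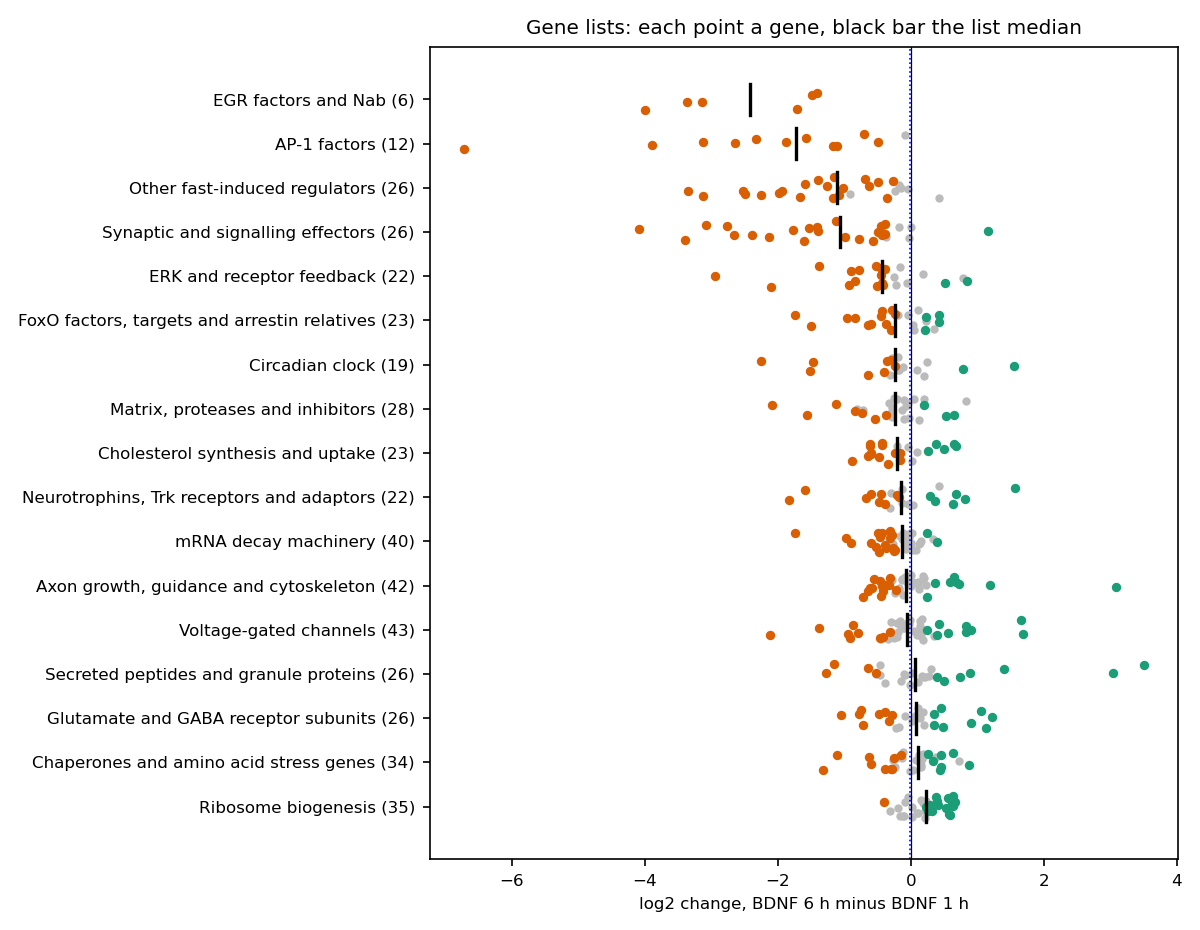
Each point is 1 gene of the 17 lists, placed by its log2 change from 1 h to 6 h of BDNF, with orange for lower, green for higher and grey for not called; black bars are list medians, the dotted line is the median of all genes (-0.02), and the number tested stands in brackets. The list medians run from -2.42 for the EGR factors to 0.23 for ribosome biogenesis.

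The BDNF 10 h libraries were not used in the contrast and show where the genes went. Of the 352 genes that fell at least 2-fold, 68 were higher than controls at 10 h (19.3%), 112 were lower (31.8%) and 172 were not called (48.9%). Over all genes tested 40.6% were called, 21.1% higher and 19.5% lower. Of the 246 genes that rose at least 2-fold, 149 were still higher than controls at 10 h (60.6%), 8 were lower and 89 were not called, with a median log2 difference from controls of 0.69. Between 6 h and 10 h only 35 genes were called (0.216%), 12 higher (0.074%) and 23 lower (0.142%), against 5443 (33.6%) between 1 h and 6 h; edgeR called 56.

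**Figure D4:**
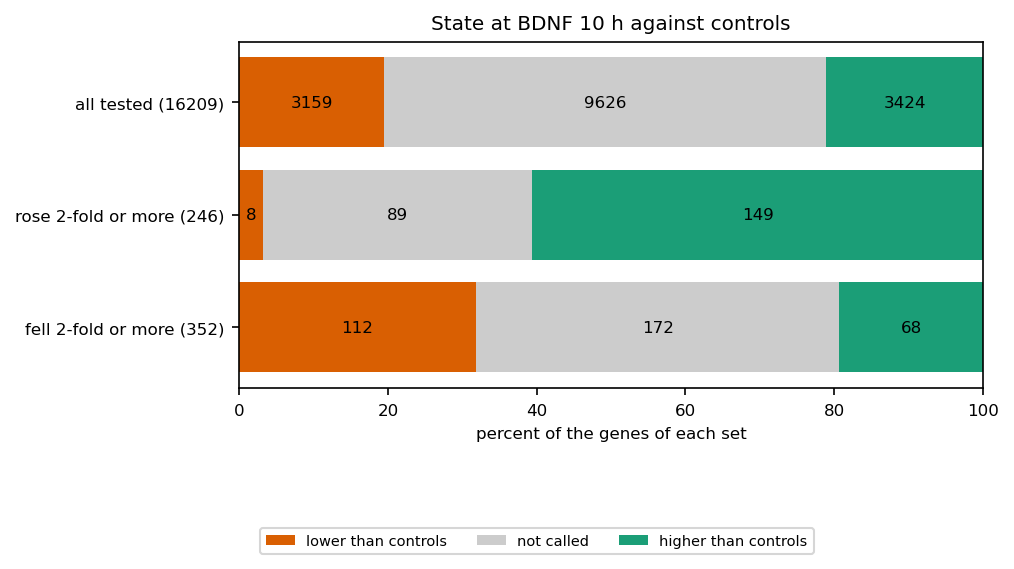
Bars give the percent of the 246 genes that rose, the 352 that fell and all 16209 tested that were lower than, not called against, or higher than controls at 10 h of BDNF, with gene counts printed in the bars. The rises are higher in 149 genes, and the falls are not called in 172.

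KCl gave another time course in separate libraries. The KCl 6 h replicates stood further apart than other pairs, with a chi-square per degree of freedom of 39.6 beside 2.44 and 2.80 in the BDNF 1 h and 6 h groups. Without library A or B of KCl 6 h the test of BDNF against KCl changes described below called 8121 and 7344 genes, beside 7802 with both. Between 1 h and 6 h of KCl 9656 genes were called (59.6%), 5006 higher (30.9%) and 4650 lower (28.7%). Of the genes that fell at least 2-fold under BDNF, 147 of 352 fell under KCl (41.8%) and 86 rose (24.4%), and of those that rose at least 2-fold, 96 of 246 rose (39.0%) and 58 fell (23.6%). Genes beyond 2-fold in both courses numbered 80 for the falls, 22.7% of the BDNF list and 6.51% of the 1229 in the KCl list, and 61 for the rises, 24.8% and 5.37% of the 1136. Over all genes tested, 7.58% fell and 7.01% rose at least 2-fold under KCl. The difference between the courses, tested as an interaction, called 7802 genes (48.1%), 4276 lower under BDNF (26.4%) and 3526 higher (21.8%).

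Named genes showed both kinds. Egr2 fell by 3.14 under BDNF and by 3.02 under KCl, and Kcnk9 rose by 2.14 and 1.70. Egr3 fell by 3.99 under BDNF and changed by 0.03 under KCl, a difference of -4.02 (adjusted p = 6.57e-08). Alpk1, Rem2 and Dusp14 fell under BDNF and rose under KCl, by 2.76, 0.99 and 0.63. Alk rose by 2.20 under BDNF and fell by 1.14 under KCl. Btg2 fell by 1.74 under BDNF and rose by 1.79 under KCl (difference -3.53, adjusted p = 5.66e-09), and Bdnf, weakly lower under BDNF, rose by 1.86 under KCl. Egr1 differed in the other direction, since it fell by 2.57 under KCl and by 1.71 under BDNF.

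**Figure D5:**
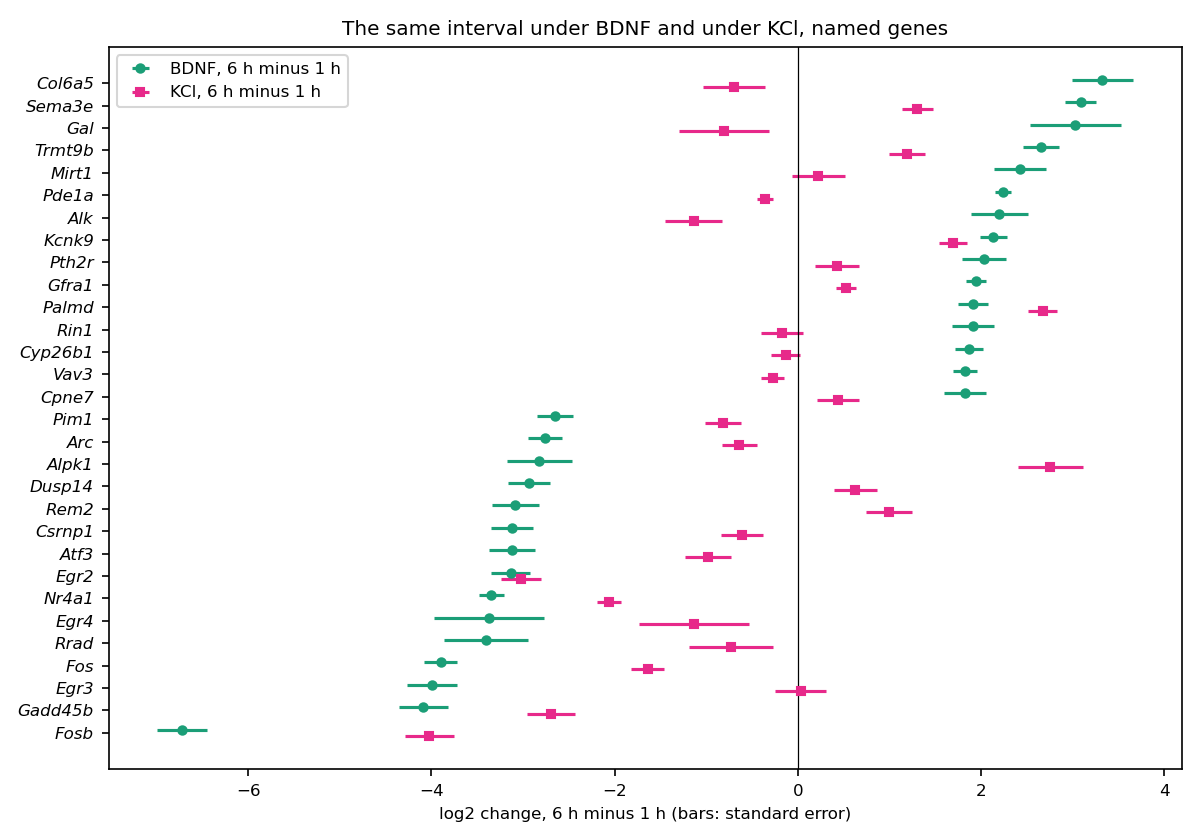
Circles give the log2 change from 1 h to 6 h under BDNF and squares the same under KCl for the 30 genes named by size, with bars for standard errors. The marks lie close together for Egr2, and lie on opposite sides of 0 for Alpk1, Rem2, Dusp14 and Alk.

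Features outside the contrast were set beside those of all genes. The nonamer shown above occurred in the 3′ UTR of 40 of 304 coding genes that fell at least 2-fold (13.2%), in 19 of 218 that rose at least 2-fold (8.72%) and in 1066 of 13256 tested (8.04%). Per kilobase of 3′ UTR there were 0.129, 0.0854 and 0.0693 copies. Over all called genes the density was 0.0689 for the falls and 0.0708 for the rises, close to that over all genes tested, while 11.1% of falls and 7.24% of rises held the nonamer, with median 3′ UTRs of 1680 and 962 bases. Median 3′ UTR lengths were 1112, 1268 and 1090 bases. Among UTRs of 1000 to 2000 bases the nonamer was in 13 of 79 falls, 2 of 58 rises and 291 of 3294 tested (8.83%). The shorter pentamer AUUUA, which lies inside the nonamer, differed little, at 1.87, 1.89 and 1.85 per kilobase. Genes that fell at least 2-fold spanned a median of 19.8 kb and those that rose at least 2-fold 36.2 kb, beside 25.6 kb over all, with a median of 7 exons in both sets against 9. Over all called genes the order was the reverse, with 41.5 kb and 11 exons for the 2875 falls and 19.6 kb and 8 exons for the 2568 rises.

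Promoter motifs were counted on both strands in RefSeq windows, which matched 250 genes that fell at least 2-fold, 176 that rose at least 2-fold and 10960 tested. The CArG box was in 14 windows of falls (5.6%), 2 of rises (1.14%) and 182 of all (1.66%). The cAMP response element TGACGTCA was in 6.0%, 2.84% and 3.58%. EGR motifs, GCGTGGGCG or GCGGGGGCG, were in 36 of 250 (14.4%), 21 of 176 (11.9%) and 7.9%, and AP-1 motifs, TGACTCA or its reverse complement TGAGTCA, in 7.2%, 5.11% and 4.19%. Letters of the EGR motif can overlap other GC-rich sites, and base composition was not matched.

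ATAC-seq of the same groups gave few changes over the same interval. Of 56383 peaks tested with edgeR, 88 were called (0.156%), 72 lower and 16 higher at 6 h. Peaks within 1000 bp upstream to 100 bp downstream of a start numbered 13264, of which 16 were called (0.121%). Without any 1 of the 4 BDNF libraries 1 to 3 promoter peaks and 6 to 19 of all peaks were called. Promoter peaks of genes that fell at least 2-fold numbered 315, with a median log2 change of -0.06 and 3 called. Those of genes that rose at least 2-fold numbered 218, with a median of -0.01 and 1 called. The median over promoter peaks of all genes tested was 0.00 after rounding (-0.0029). An unadjusted edgeR p below 0.05 was met by 38 peaks of falls (12.1%), 21 of rises (9.63%) and 897 of all promoter peaks (6.76%). The 3 called peaks of falls belonged to Hic1, Nol4l and Gm15418. Hic1 (chr11:75170196-75170713) had 129 and 154 scaled counts at 1 h and 85.9 and 58.4 at 6 h (log2 change -1.002, SE 0.23, edgeR adjusted p = 0.0465), and Nol4l had 99.2 and 110 against 41.2 and 59.99, while its RNA fell by 1.61. The 1 peak of a gene that rose lay at Sv2c, a synaptic vesicle protein, whose RNA rose by 1.62 from 164 and 195 to 563 and 541 while the peak fell from 182 and 162 scaled counts to 53.7 and 70.5 (log2 change -1.45, SE 0.23, edgeR adjusted p = 8.54e-05).

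The promoter peaks of the deepest RNA falls did not pass. Fosb (chr7:19310003-19310487) had 103 and 83.2 scaled counts at 1 h and 129 and 117 at 6 h, a log2 change of 0.40 (SE 0.21, edgeR adjusted p = 0.707). Fos (chr12:85473407-85474127) changed by -0.31 (SE 0.20, edgeR adjusted p = 0.792), and Egr2 (chr10:67537152-67537980) by 0.33 (SE 0.18, edgeR adjusted p = 0.708). Sema3e and Pde1a changed by 0.02 and 0.18. With 2 libraries a group, a missed threshold does not show that accessibility was the same.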

How the data were processed

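RNA-seq and ATAC-seq were each measured in 18 samples of 9 groups, 2 per group, described by the study as biological replicates; separate cultures or litters are not named, so p-values measure the spread between these samples. Per the labels and the study's methods, the authors mapped RNA reads to mm10 with TopHat2 and GENCODE M16. No source used here names the counting program. Deposited RNA values were a signal, gene read counts divided by the authors' size factors (DESeq2), for 26709 genes. Whole reads were recovered for 100% of values in each column (tolerance 0.01) and gave the depth of 8.51 to 36.7 M reads. The deposited ATAC values are read counts over peaks that the authors aligned with Bowtie2 and called with MACS2. Further deposited tables hold the authors' own comparisons (log2 fold changes, standard errors, test statistics, p-values and adjusted p-values) and were not used.

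Genes with a mean of at least 10 over 18 libraries (16209) were tested with limma 3.58.1 on log2(value + 1), which understates changes of low genes, with 7 levels (9 with controls split by time), trend and robust options, two-sided and Benjamini-Hochberg adjusted over all genes. The whole reads were tested with edgeR 4.0.16 (5525 genes called) and DESeq2 1.42.0 as alternatives, and ATAC peaks with a mean of at least 10 with edgeR's quasi-likelihood test and LOESS offsets. In simulated reads for BDNF 6 h minus BDNF 1 h over 16209 genes, limma recovered 86% of 100 genes changed 2-fold, with 12 false calls. The simulated spread was set and not estimated from these libraries, and far fewer genes changed than were called here. The recovered share is therefore not an estimate of power in these data. Names and coordinates came from GENCODE M21 (26162 genes named), with 1 transcript per gene by APPRIS rank, then length. Named genes are the 15 largest falls and 15 largest rises among called genes with a mean of at least 100 in the higher group, no overlap of the 2 groups' libraries and no clone name, a fixed set of 20 genes, and per list up to 4 called members by change and 2 by level. Genes named outside it were chosen after their values were seen (Sv2c, Nol4l, Gm15418, Maff, and the neuron and glial markers). Members, lists and tests were chosen with earlier results of these data known. Replicates differed by more than sampling noise in every RNA pair. Letters of ATAC columns pair nothing.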

Additional observations from a re-analysis of the deposited data

Results flagged for a closer look

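In the 6 controls, 1 library (control 10 h, A) stood below the others for Bdnf, at 38.5 normalised counts against 59.1 to 65.1, and for Txnip, at 519 against 610 to 663. Chance flags about 1 in 20 groups, and 43 were checked.

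The change between 1 h and 6 h differed between BDNF and KCl, by the interaction in limma, for 7802 genes in all. Values here are log2 changes under BDNF minus those under KCl. Among AP-1 and EGR factors the differences were -2.70 for Fosb, -2.26 for Fos, -2.14 for Atf3, -0.77 for Fosl1, -4.02 for Egr3, -2.24 for Egr4 and 0.85 for Egr1. Among other named falls they were -1.40 for Gadd45b, -2.67 for Rrad, -1.29 for Nr4a1, -2.51 for Csrnp1, -4.08 for Rem2, -3.57 for Dusp14, -5.58 for Alpk1, -2.12 for Arc and -1.84 for Pim1. Fixed genes gave -1.51 for Npas4, -2.46 for Bdnf, -2.06 for Vgf, -3.53 for Btg2, 0.42 for Arrdc3, 0.68 for Gpr12, -0.43 for Rasgrf2, -0.72 for Nipal3 and -1.20 for Cebpb. Among rises they were 4.02 for Col6a5, 1.78 for Sema3e, 3.84 for Gal, 1.46 for Trmt9b, 2.20 for Mirt1, 2.61 for Pde1a, 3.34 for Alk, 1.61 for Pth2r, 1.42 for Gfra1, -0.76 for Palmd, 2.09 for Rin1, 2.00 for Cyp26b1, 2.10 for Vav3 and 1.39 for Cpne7. Palmd is the only one of these 14 rises with a larger rise under KCl. The causes were not tested.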

How the results depend on the processing

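The count of 5443 called genes ranged from 4872 (DESeq2) to 7875 (4 BDNF libraries alone) over pseudocount, filters, TMM, edgeR and split controls, and was 2637 at an adjusted p below 0.01. Without single BDNF libraries, which leaves a lone library assumed to vary like the other groups, it was 3515 to 3743, with 3586 without BDNF 1 h replicate A and 3515 without BDNF 6 h replicate B. The interaction with controls (2574) gave 1441 to 2800 without single libraries, among them 1570 without control 1 h replicate A and 1684 without control 6 h replicate B, and the interaction with KCl (7802) gave 6660 to 8121. Genes that fell and rose at least 2-fold numbered 567 and 457 with no filter on low values and 217 and 131 with a mean of at least 50. TMM moved the median change by 0.01 and the share of calls that were higher from 47.2% to 49.5%. Promoter ATAC calls (16) dropped to 1 to 3 and all ATAC calls (88) to 6 to 19 without single libraries. Each leave-one-out fit has fewer samples.

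The A-minus-B deviations of BDNF 1 h and BDNF 6 h correlated at 0.05, and over all pairs of RNA groups the correlation ran from -0.31 (control 1 h with control 10 h) to 0.42 (control 1 h with control 6 h), not above 0.1 in every pair, so the letters were not taken to pair the samples. A replicate block gave 5624 calls, 2715 in the interaction with controls and 7976 in that with KCl. ATAC columns carry no numbers to pair. Of 1615 values of 125 named genes under alternatives, 1567 kept direction and side of the threshold, 40 fell short of it in 14 genes, 8 newly passed and 0 reversed. Depth limits genes near 10 counts, where 1 read is a large step.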

Other observations

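At Sv2c the promoter peak fell while the RNA rose, both called between 1 h and 6 h of BDNF. These genes were chosen after their values were seen. Spry2, a receptor kinase inhibitor, showed both lower: its promoter peak fell from 404 and 354 scaled counts to 247 and 284 (log2 change -0.50, SE 0.13, edgeR adjusted p = 0.0842), and its RNA fell by 0.44 from 1518 and 1623 to 1155 and 1152. At Cgref1 the peak fell by 1.47 while the RNA changed by 0.12 (SE 0.16) and did not pass.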
